A study of Homo sapiens with 6 samples.

Results

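Transcription factors grouped as Müllerian lineage factors were examined in an ovarian cancer cell line with lowered COX-1. The Müllerian duct is the embryonic tube that becomes the fallopian tube, uterus and upper vagina, and not all of these factors are particular to it. The genes were PAX8, PAX2, WT1, SOX17, EMX2, MECOM, GATA4 and GATA6, and each was taken as the row of the count table that carried its symbol. Of these 8 genes, 7 had a row among the 34811 rows of the table, and GATA4 was not analysed here. The cells were OVCAR-3, an established line from a human ovarian carcinoma that serves as a model of high-grade serous ovarian cancer (HGSOC). All libraries came from OVCAR-3 cells that carried a short hairpin RNA (shRNA) plasmid and grew in RPMI-1640 medium with 10% fetal bovine serum under puromycin selection. The OV3/COX1KD cells carried an shRNA against PTGS1, the gene for COX-1, and the OV3/SCR control cells carried a scrambled shRNA. Each condition was 1 stable clone, sequenced as 3 libraries from independent passages, so the knockdown and the choice of clone cannot be told apart, and every p-value measures only the spread between passages of a clone.

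Lineage factors are DNA-binding proteins that hold a cell in its tissue identity by keeping sets of genes open and others closed. PAX8 and its close relative PAX2 are paired-box factors of the kidney, thyroid and Müllerian epithelium, and pathologists stain for PAX8 to trace a carcinoma to the Müllerian tract. WT1 is a zinc-finger factor of the developing kidney, gonad and mesothelium that is also present in fallopian tube epithelium and in most HGSOC. SOX17 is an HMG-box factor of endoderm and of fallopian tube epithelium, and EMX2 is a homeobox factor without which the urogenital tract does not form. MECOM encodes EVI1 and MDS1-EVI1, zinc-finger factors from a region that is often amplified in HGSOC, and GATA6 and GATA4 are zinc-finger factors of endoderm, heart and gonad.

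The sequences just upstream of PAX8, GATA6 and WT1 are shown because these genes moved in different directions and because GATA6 and WT1 share this stretch with a transcript of the opposite strand. Each window holds the 250 bases before the RefSeq start of the gene (assembly GRCh38.p14), was placed on GRCh37 by an exact match, and is written 5′ to 3′ on the strand of the gene. The last 25 bases of the WT1 window lie inside WT1 exons of the GRCh37 annotation, which starts the gene further upstream than RefSeq does. Capitals mark a CCAAT box or a GC box (GGGCGG, or CCGCCC when read on the other strand).
PAX8, chr2:114036499-114036748, minus strand: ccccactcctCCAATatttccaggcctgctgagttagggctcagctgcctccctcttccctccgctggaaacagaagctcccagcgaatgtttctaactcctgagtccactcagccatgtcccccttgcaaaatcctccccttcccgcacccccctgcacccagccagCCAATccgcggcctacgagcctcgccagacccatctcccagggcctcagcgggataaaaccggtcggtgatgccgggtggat
GATA6, chr18:19749300-19749549, plus strand: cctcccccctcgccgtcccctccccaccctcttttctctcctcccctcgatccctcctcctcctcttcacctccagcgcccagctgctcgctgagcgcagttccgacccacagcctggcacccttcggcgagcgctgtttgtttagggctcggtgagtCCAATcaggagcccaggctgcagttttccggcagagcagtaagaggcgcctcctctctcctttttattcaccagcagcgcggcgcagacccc
WT1, chr11:32457086-32457335, minus strand: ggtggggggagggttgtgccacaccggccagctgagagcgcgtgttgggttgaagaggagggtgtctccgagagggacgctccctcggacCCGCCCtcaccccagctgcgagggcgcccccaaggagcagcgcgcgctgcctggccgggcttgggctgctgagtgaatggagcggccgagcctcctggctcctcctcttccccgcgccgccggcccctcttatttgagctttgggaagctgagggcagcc
The PAX8 window was 61.6% G and C and held 2 CCAAT boxes, the GATA6 window was 64.4% and held 1, and the WT1 window, the first of 4 for this gene, was 70.4% and held 1 GC box and no CCAAT box. On either strand, CCAAT was found in 32% and GGGCGG in 42.6% of the 35116 human promoter windows of this length, so neither is rare. None of the 3 windows held the GATA words AGATAA (in 9.17% of all windows), AGATAG (in 5.66%), TGATAA (in 6.66%) or TGATAG (in 5.05%), the homeobox word TAATTA (in 4.35%), the SOX word ACAAAG (in 13.7%), the TATA word TATAAA (in 10.7%) or the core TGACG of the cAMP response element (in 21.2%). This says only that these letters were not in these windows. All 250 bases of the GATA6 window lay inside the GATA6-AS1 gene and all 250 bases of the WT1 window lay inside WT1-AS, whereas the PAX8 window shared no base with PAX8-AS1.

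The 6 libraries held between 25291505 and 27391538 gene counts, at which 3 counts correspond to 0.113 to 0.12 CPM (counts per 1000000). Levels are given as CPM after scaling by the trimmed mean of M values (TMM), which corrects for differences in library composition. PTGS1 itself had 641 to 713 counts in OV3/SCR and 456 to 501 in OV3/COX1KD, a log2 fold change of -0.45 (standard error [SE] 0.057, FDR = 1.3e-06 in edgeR). It was lower in each OV3/COX1KD library than in each OV3/SCR library. Markers of serous ovarian carcinoma, PAX8 and WT1 among them, were all well above the floor, with a summed level of 2821 to 2856 CPM in OV3/SCR and 3015 to 3115 CPM in OV3/COX1KD. Throughout, a gene was called when its false discovery rate (FDR) in edgeR's quasi-likelihood test, adjusted over the 17309 genes tested, was under 0.01, and fold changes are OV3/COX1KD against OV3/SCR.

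PAX8, MECOM and GATA6 fell in OV3/COX1KD, WT1 and SOX17 rose, EMX2 was not called, and PAX2 was near the floor in both conditions. Thus 5 of the 6 tested factors were called, 2 higher and 3 lower, where 47.9% of all tested genes were called, 25.8% as higher and 22.1% as lower. Among the 10487 tested genes at least as abundant as GATA6, the least abundant factor tested, the share called was 61.5%, so a call was the more common outcome at these levels. The median log2 fold change of the 6 factors was -0.35, against -0.00866 for all tested genes. The libraries of the conditions did not overlap for the same 5 factors, as they did not for 63.2% of tested genes. For a significantly changed gene the methods of the study also asked for a fold above 2.5. None of the factors passed that stricter rule in edgeR, which 3.92% of tested genes passed. The study's figures of single genes coloured log2 fold changes beyond 0.5 in either direction at an FDR under 0.01. By that display rule PAX8 (-0.76), MECOM (-0.76) and GATA6 (-0.66) would count as lower in edgeR, while WT1 (0.41) and SOX17 (0.31) would not count.

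**Figure D1:**
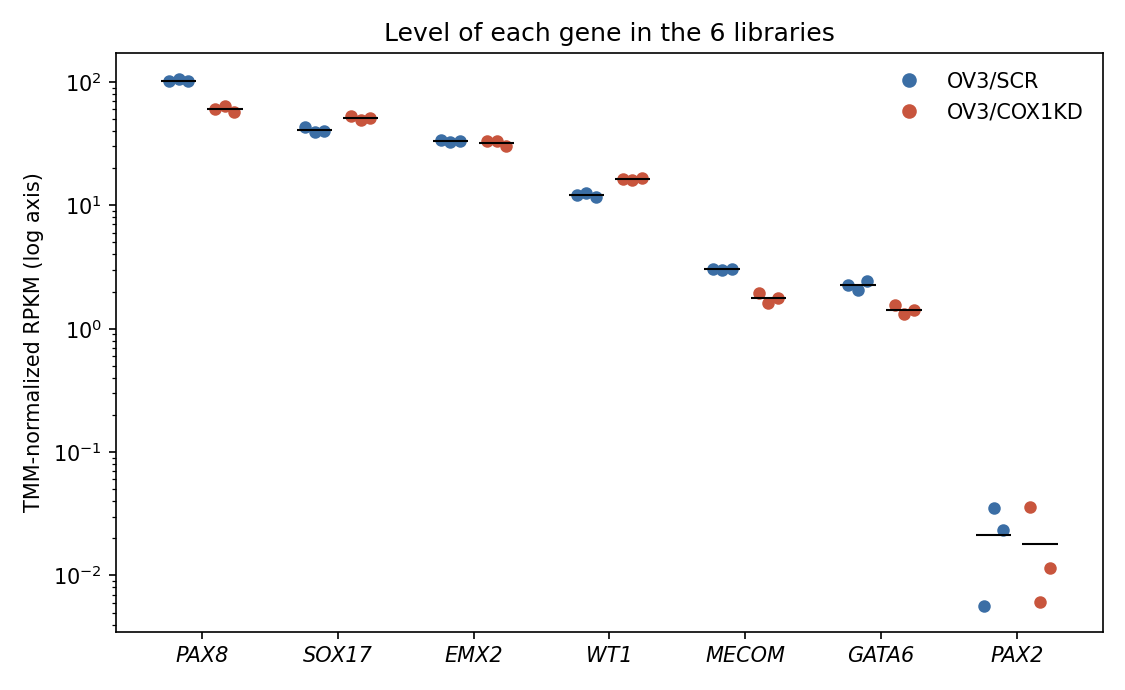
TMM-normalized RPKM (CPM per kilobase of exon, log axis) of the 7 factors in each of the 3 OV3/SCR and 3 OV3/COX1KD libraries, where each point is a library and the bar is the mean of 3. PAX8 stood highest in both conditions, and PAX2 was at most 0.0362 RPKM in every library.

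PAX8 was the most abundant of the factors and had the most precise fall. PAX8 (ENSG00000125618, GRCh37 chromosome 2, 113973574 to 114036498) gave 19790, 20262 and 19370 counts in OV3/SCR replicates 1 to 3, against 11233, 11791 and 11271 in OV3/COX1KD. Each OV3/COX1KD library was below each OV3/SCR library, and the spread within a condition was small beside the gap. The mean level went from 756 ± 18.6 CPM to 447 ± 23.7 CPM (SD, n = 3 each), a log2 fold change of -0.76 (95% interval -0.83 to -0.69, edgeR FDR = 4.3e-13). The level left was 0.59 of the control. A larger fall was seen in 8.02% of tested genes.

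PAX2, the paired-box relative that acts beside PAX8 in the embryonic duct, had 1, 6 and 4 counts in OV3/SCR and 6, 1 and 2 in OV3/COX1KD. PAX2 (ENSG00000075891, chromosome 10, 102495153 to 102589701) was removed as too low to test, and a fit that kept such genes gave an edgeR FDR of 0.856. The libraries overlapped, and no fold is given at this depth. PAX8, unlike PAX2, was thus well above the floor in both clones.

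WT1 moved opposite to PAX8. WT1 (ENSG00000184937, chromosome 11, 32409321 to 32457110) gave 2651, 2684 and 2469 counts in OV3/SCR replicates 1 to 3, against 3337, 3253 and 3574 in OV3/COX1KD. The mean level went from 99.3 ± 3.75 CPM to 132 ± 2.2 CPM (SD, n = 3 each), a log2 fold change of 0.41 (95% interval 0.34 to 0.49, edgeR FDR = 4.6e-09). The 3 OV3/COX1KD libraries were all above the 3 OV3/SCR libraries. A larger rise was seen in 15.9% of tested genes.

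SOX17, which has been described as a partner of PAX8 in ovarian cancer cells, also rose. SOX17 (ENSG00000164736, chromosome 8, 55370495 to 55373452) gave 2704, 2396 and 2445 counts in OV3/SCR replicates 1 to 3, against 3103, 2882 and 3191 in OV3/COX1KD. The mean level was 96 ± 4.9 CPM in OV3/SCR and 119 ± 4.16 CPM in OV3/COX1KD (SD, n = 3 each). The log2 fold change was 0.31 (95% interval 0.23 to 0.40, edgeR FDR = 1.1e-06), and after scaling the libraries of the conditions did not overlap.

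EMX2 was the only tested factor without a call. EMX2 (ENSG00000170370, chromosome 10, 119301956 to 119309057) gave 2948, 2790 and 2798 counts in OV3/SCR replicates 1 to 3, against 2709, 2715 and 2636 in OV3/COX1KD. The mean level was 109 ± 1.79 CPM and 105 ± 5.24 CPM (SD, n = 3 each), and after scaling the libraries overlapped. The log2 fold change was -0.05 with a 95% interval of -0.13 to 0.03 (edgeR FDR = 0.267), an interval that leaves room for a small fall. Scaling by total counts alone gave -0.13 and an FDR of 0.00656, which is a call.

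MECOM fell by the same proportion as PAX8 at a much lower level. MECOM (ENSG00000085276, chromosome 3, 168801287 to 169381563) gave 752, 719 and 725 counts in OV3/SCR replicates 1 to 3, against 455, 375 and 440 in OV3/COX1KD. The mean level was 28 ± 0.32 CPM in OV3/SCR and 16.5 ± 1.56 CPM in OV3/COX1KD (SD, n = 3 each). The log2 fold change was -0.76 (95% interval -0.89 to -0.63, edgeR FDR = 3.6e-09), and the libraries did not overlap.

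GATA6 was the least abundant factor tested. GATA6 (ENSG00000141448, chromosome 18, 19749550 to 19782491) gave 228, 204 and 241 counts in OV3/SCR replicates 1 to 3, against 149, 125 and 143 in OV3/COX1KD. The mean level was 8.57 ± 0.747 CPM and 5.43 ± 0.469 CPM (SD, n = 3 each), again without overlap. The log2 fold change was -0.66, and the lower counts made its 95% interval wider, from -0.87 to -0.45 (edgeR FDR = 1.5e-05).

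**Figure D2:**
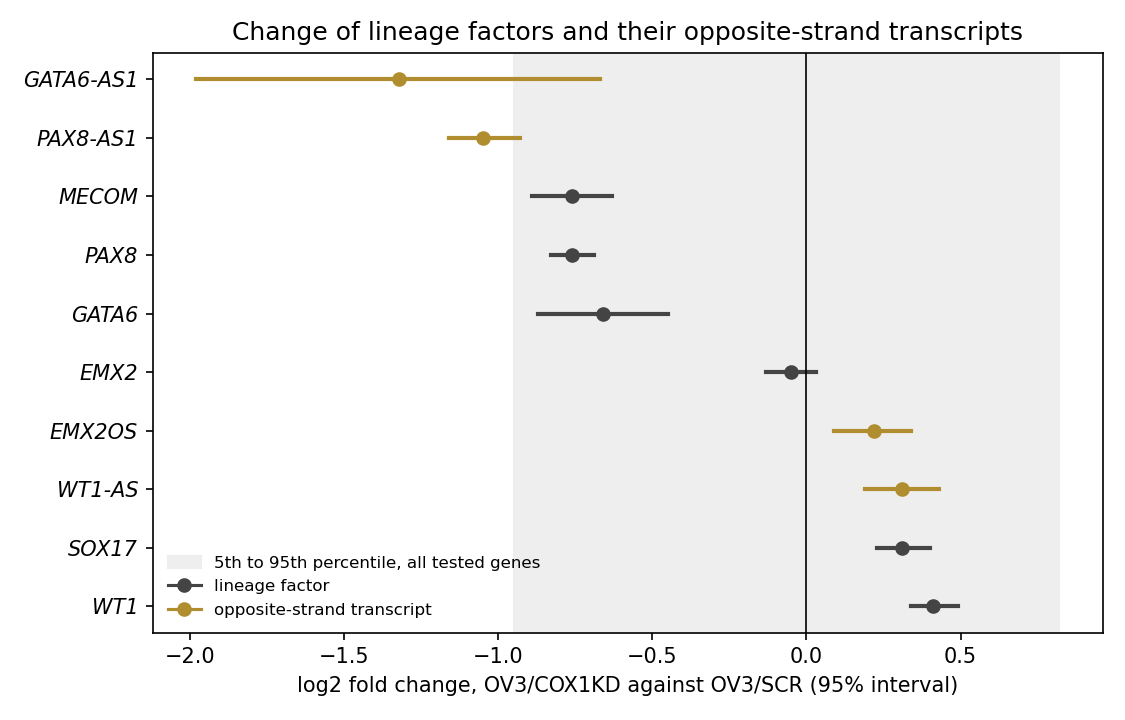
log2 fold change of OV3/COX1KD against OV3/SCR (x axis) with its 95% interval for the 6 tested factors and 4 tested opposite-strand transcripts, over a grey band from the 5th to the 95th percentile of all tested genes (-0.95 to 0.82). All 6 factors lay inside the band, and PAX8-AS1 and GATA6-AS1 lay below it.

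Levels can be compared between genes only per length of transcript, for which the total exon length in GENCODE release 44 was used. Per length, the order was PAX8, SOX17, EMX2, WT1, MECOM, GATA6 and PAX2 in both conditions, and no gene overlapped with the next in that order over the 3 libraries of a condition. The order of SOX17, EMX2 and WT1 rests on the lengths used, which were 2346, 3261 and 8133 bases. By CPM these genes were close in OV3/SCR, with means of 96, 109 and 99.3. In OV3/SCR, PAX8 had 103 ± 2.53 RPKM, more than 98.3% of the tested genes with a length, and in OV3/COX1KD it had 60.6 ± 3.22 RPKM, more than 96.5% (SD, n = 3 each). SOX17 had 40.9 ± 2.09 RPKM in OV3/SCR and 50.9 ± 1.77 RPKM in OV3/COX1KD, which narrowed the distance to PAX8. EMX2 had 33.3 ± 0.55 and 32.2 ± 1.61 RPKM, and WT1 had 12.2 ± 0.461 and 16.3 ± 0.27 RPKM. MECOM, at 3.02 ± 0.0346 and 1.78 ± 0.168 RPKM, and GATA6, at 2.26 ± 0.197 and 1.43 ± 0.123 RPKM, were below the middle of the tested genes in both conditions. Of the summed RPKM of the 7 factors, PAX8 made up 51.5%, 54% and 52.8% in OV3/SCR replicates 1 to 3, but 36.5%, 38.7% and 36.2% in OV3/COX1KD.

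A ratio of 2 genes within a library does not depend on how libraries are scaled. The ratio of PAX8 to WT1 counts was 7.47, 7.55 and 7.85 in OV3/SCR and 3.37, 3.62 and 3.15 in OV3/COX1KD, a log2 change of -1.17. The ratio of PAX8 to SOX17 counts was 7.32, 8.46 and 7.92 in OV3/SCR and 3.62, 4.09 and 3.53 in OV3/COX1KD, a log2 change of -1.08. Neither ratio overlapped between the conditions. Against EMX2, PAX8 and MECOM both changed by -0.71 on the log2 scale and GATA6 by -0.61, whereas WT1 changed by 0.46 and SOX17 by 0.37, also without overlap. The ratio of WT1 to SOX17 changed by 0.10 (two-sided exact permutation p = 0.3) and that of PAX8 to MECOM by 0.00 (two-sided exact permutation p = 1), with overlapping libraries. For the 7 ratios without overlap the two-sided exact permutation p was 0.1, the smallest that 3 against 3 libraries allow, and adjusted over the 9 ratios compared it was 0.129, so this test cannot pass 0.05.

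**Figure D3:**
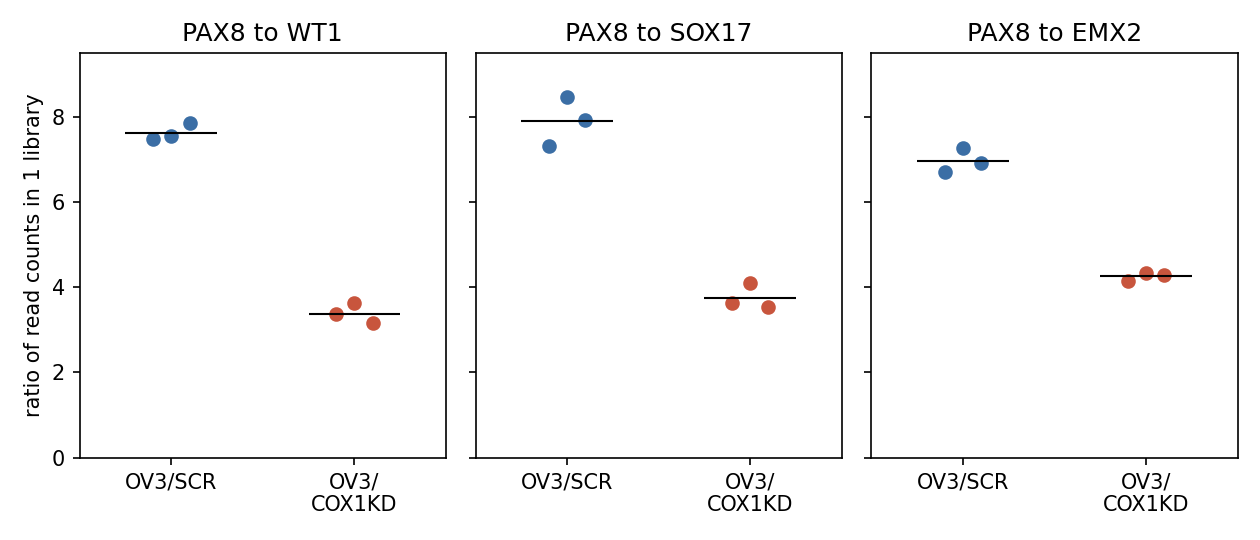
Ratio of PAX8 counts to WT1, SOX17 and EMX2 counts within each library (y axis, from 0), where each point is a library and the bar is the mean of 3 libraries of a condition. In all 3 panels each OV3/COX1KD library, at 3.15 to 4.34, was below each OV3/SCR library, at 6.71 to 8.46.

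Several factors lie across from a long noncoding RNA on the opposite strand. The library kit did not mark strand, so where such genes share exon bases their reads cannot be told apart. PAX8-AS1 shares 1651 exon bases with PAX8, which are 22.4% of the PAX8 exon bases, EMX2OS shares 348 with EMX2 (10.7%), GATA6-AS1 shares 94 with GATA6 (2.47%) and WT1-AS shares 47 with WT1 (0.578%). Of 5 opposite-strand transcripts named, 4 were tested, 2 were higher and 2 lower, where 47.9% of all tested genes were called. MECOM-AS1 had at most 2 counts in a library.

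PAX8-AS1 had 1518, 1457 and 1292 counts in OV3/SCR and 694, 649 and 674 in OV3/COX1KD, with no overlap. Its log2 fold change was -1.05 (SE 0.0547, FDR = 3.1e-12 in edgeR). A second opposite-strand transcript within PAX8, RP11-65I12.1, was singled out after its values were seen. It shares 234 exon bases with PAX8 (3.17% of the PAX8 exon bases). It had 167, 149 and 164 counts against 74, 86 and 72, a log2 fold change of -1.02 (edgeR FDR = 7.5e-07). Thus PAX8 and both transcripts across from it were lower in OV3/COX1KD. The ratio of PAX8 to PAX8-AS1 counts was 13 to 15 in OV3/SCR and 16.2 to 18.2 in OV3/COX1KD. The part of PAX8 reads in the counts of these transcripts was not tested.

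GATA6-AS1 also fell with the gene beside it, from 20, 25 and 22 counts to 9, 10 and 7. Its log2 fold change was -1.32 (SE 0.313, FDR = 0.00124 in edgeR), and the call was lost without OV3/COX1KD replicate 3 (FDR = 0.0102) and in DESeq2 (adjusted p = 0.0192). WT1-AS rose with WT1, from 687, 610 and 639 counts to 759, 806 and 781, a log2 fold change of 0.31 (SE 0.0553, FDR = 7.9e-05 in edgeR). The windows of GATA6 and WT1 printed above lie inside the genes of these RNAs, past their starts, and are not upstream of them.

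EMX2OS, the transcript opposite EMX2, had 593, 642 and 583 counts in OV3/SCR and 644, 711 and 712 in OV3/COX1KD. Its log2 fold change was 0.22 (SE 0.0585, FDR = 0.00356 in edgeR), while EMX2 was not called. The call of EMX2OS was lost without OV3/SCR replicate 1 (FDR = 0.0232), without OV3/SCR replicate 3 (FDR = 0.0202), with total count scaling (FDR = 0.0474) and in DESeq2 (adjusted p = 0.0125). The ratio of EMX2 to EMX2OS counts was 4.35 to 4.97 in OV3/SCR and 3.7 to 4.21 in OV3/COX1KD.

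Genes near the factors were taken as tested genes whose start lay within 1 Mb of the start of a factor. Of 108 such genes, 25 were higher and 24 were lower, near the shares of all tested genes (25.8% and 22.1%), and their median log2 fold change was 0.00. Around PAX8, 5 of 21 genes were higher and 5 lower, with a median of -0.03. Around WT1, 6 of 17 were higher and 1 lower, around SOX17 3 of 9 were higher and 1 lower, and around MECOM 3 of 11 were higher and 3 lower, with medians of 0.03, 0.06 and -0.11. Around GATA6, 0 of 8 were higher and 3 were lower, and around EMX2 3 of 12 were higher and 2 lower, with medians of 0.05 and 0.16. Around PAX2, 5 of 30 genes were higher and 9 lower (median -0.06). The medians around the 5 called factors thus lay between -0.11 and 0.06, near 0 in each case.

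The called neighbours with the largest changes were ENSG00000272563 near PAX8, SCD near PAX2, LINC02984 near SOX17 and IL36RN near PAX8, besides GATA6-AS1 and PAX8-AS1. SCD, which makes monounsaturated fatty acids, rose by 1.24 on the log2 scale (SE 0.0321, FDR = 8.0e-17 in edgeR), beside a PAX2 gene near the floor. IL36RN, an antagonist of the interleukin-36 receptor, rose by 1.05 (SE 0.174, FDR = 3.4e-05 in edgeR), against the direction of PAX8. The noncoding ENSG00000272563 changed by -1.32 (edgeR FDR = 7.7e-04, DESeq2 adjusted p = 0.0121), and LINC02984 changed by -1.13 (edgeR FDR = 0.00305, DESeq2 adjusted p = 0.0375), so the last of these ran against SOX17.

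**Figure D4:**
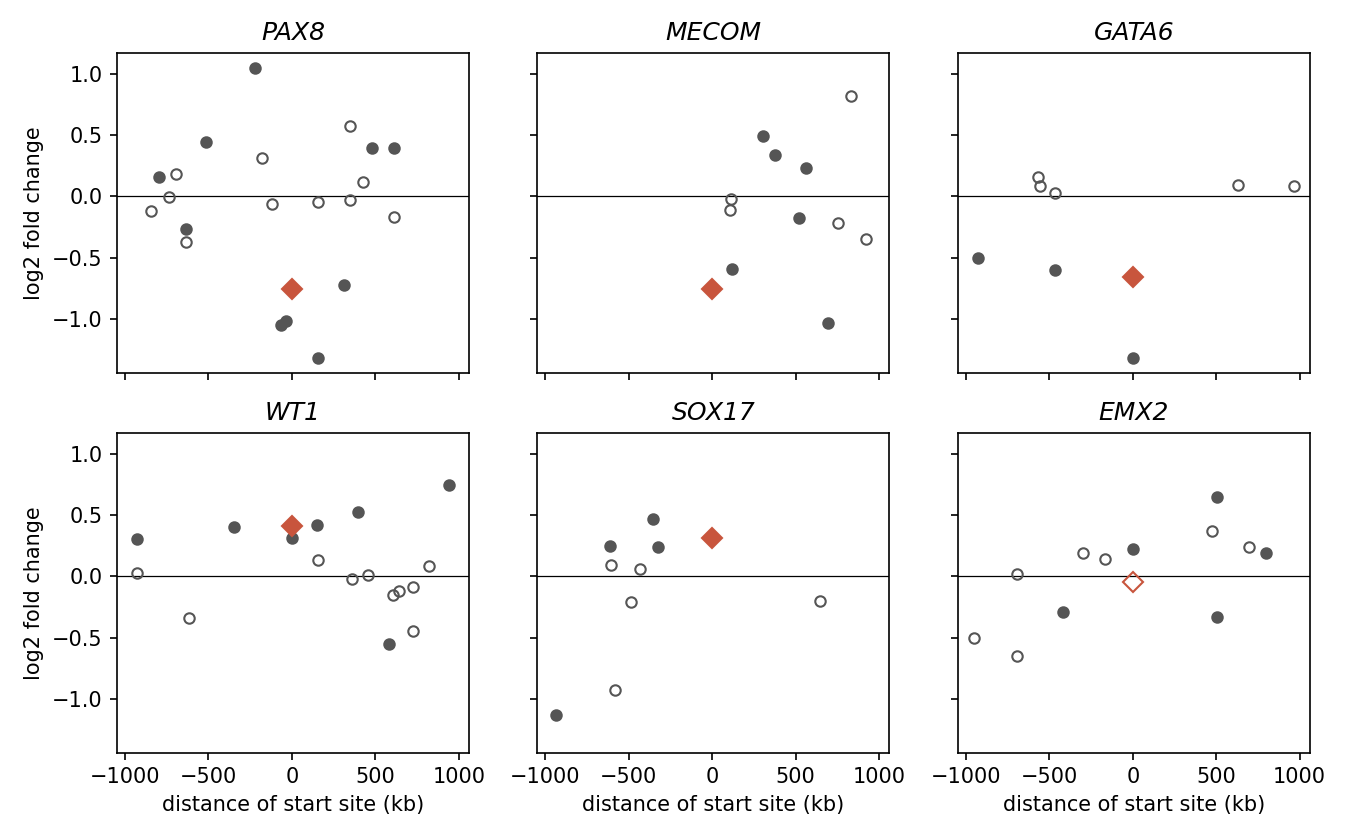
log2 fold change of OV3/COX1KD against OV3/SCR (y axis) of each tested gene within 1 Mb of 6 factors, by the distance of its start from that of the factor along the chromosome (x axis, kb), with the factor as a red diamond and filled symbols for FDR under 0.01. Around PAX8 called genes lay on both sides of 0 (5 higher and 5 lower), and around GATA6 none of the 8 was called as higher.

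Close relatives of the factors were mostly at low counts. Of 15 relatives named, 12 had a row and 5 were tested, of which 1 was higher and 1 lower. Among all tested genes 47.9% were called. GATA2, a blood and urogenital GATA factor, had 118, 130 and 115 counts in OV3/SCR and 75, 54 and 57 in OV3/COX1KD, a log2 fold change of -0.93 (SE 0.147, FDR = 1.9e-05 in edgeR), and so fell as GATA6 did. PAX9, a pharyngeal and skeletal PAX factor, had 226, 249 and 223 counts against 285, 303 and 342, a log2 fold change of 0.44 (SE 0.0821, FDR = 1.1e-04 in edgeR), opposite to PAX8. PAX4, GATA1 and GATA5 had at most 3 counts in every library.

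Of 27 genes that work with the factors in the urogenital tract, 23 had a row and 17 were tested, of which 5 were higher, 3 were lower and 9 were not called. These 8 of 17 were near the 47.9% called among all tested genes, with a median log2 fold change of 0.16. ZFPM2, which encodes the GATA cofactor FOG2, had 155, 156 and 169 counts in OV3/SCR and 83, 84 and 98 in OV3/COX1KD, a log2 fold change of -0.83 (SE 0.115, FDR = 4.4e-06 in edgeR). ZFPM2 was thus lower, as GATA6 and GATA2 were. Its relative ZFPM1, on the same list, had a log2 fold change of 0.31 and was not called (FDR = 0.0333 in edgeR). NR2F2, an orphan nuclear receptor of uterine stroma and of Wolffian duct regression, rose by 0.54 (SE 0.0398, FDR = 5.7e-10 in edgeR).

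HOXA genes pattern the Müllerian duct along its length. Of the 4 tested 1 was higher, 1 was lower and 2 were not called, where 47.9% of all tested genes were called. HOXA9, of the fallopian tube, had 227, 216 and 209 counts in OV3/SCR and 116, 173 and 133 in OV3/COX1KD, a log2 fold change of -0.59 (SE 0.12, FDR = 2.7e-04 in edgeR). HOXA10, of the uterus, had 61, 52 and 57 counts against 85, 81 and 88, a log2 fold change of 0.61 (SE 0.145, FDR = 0.00131 in edgeR), a call that DESeq2 did not make (adjusted p = 0.0134). HOXA11 had a log2 fold change of 0.16 (FDR = 0.795 in edgeR) and HOXA13 of 0.48 (FDR = 0.24 in edgeR), both with at most 21 counts in every library. WNT7A, AMHR2 and ESR1 had at most 3 counts in every library, so a Müllerian duct ligand, the receptor of anti-Müllerian hormone and estrogen receptor alpha were near or under the floor in both clones.

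Among 15 genes that textbooks give as targets of PAX8, PAX2, WT1 or the GATA factors, 8 were tested, with a median log2 fold change of -0.23. Of these 8, 0 were higher and 2 were lower, a smaller share than the 47.9% called among all tested genes. AMH, the anti-Müllerian hormone gene that GATA4, WT1 and SOX9 act on in the fetal testis, had 2781, 2562 and 2638 counts in OV3/SCR and 1089, 1431 and 1100 in OV3/COX1KD. Its log2 fold change was -1.11 (SE 0.0737, FDR = 1.3e-10 in edgeR), with no overlap. PODXL, the podocyte surface sialomucin that WT1 acts on in the kidney, had 4909, 4825 and 4805 counts against 3642, 3258 and 3789, a log2 fold change of -0.41 (SE 0.0366, FDR = 8.8e-09 in edgeR), opposite to WT1. GDNF, CYP19A1, DAB2, AREG and TG had at most 3 counts in every library.

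**Figure D5:**
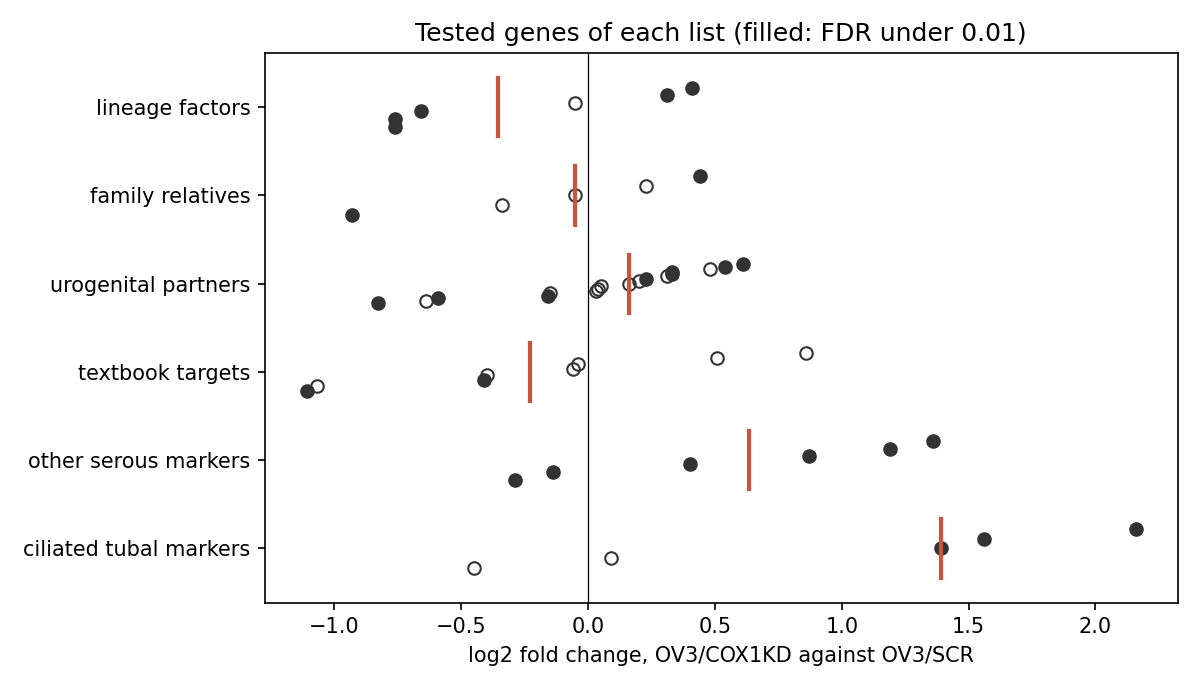
log2 fold change of OV3/COX1KD against OV3/SCR (x axis) of every tested gene of 6 lists, where filled points had an edgeR FDR under 0.01 and the red line is the median of the list. The medians of the factors (-0.35) and the textbook targets (-0.23) were below 0, and those of the serous carcinoma markers other than PAX8 and WT1 (0.64) and ciliated markers (1.39) were above 0. Of the 8 tested textbook targets, 6 were not called.

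The genes most like each factor over the 6 libraries were ranked by Pearson's r of log2 CPM among the 13011 genes whose mean log2 CPM was 1 or more, as a description, since the 6 points fall into 2 clones. For PAX8 these were TWNK and BRD8 (both r = 0.9994), and 420 genes had r over 0.99. For WT1 they were SYT12 (r = 0.9994) and PNPLA4 (r = 0.9993), and 250 genes had r over 0.99. For MECOM they were QSOX1 (r = 0.9994) and HMGXB3 (r = 0.9993), for SOX17 PDCL and ORC5 (both r = 0.9992), and for GATA6 BRIX1 (r = 0.9976) and EIF6 (r = 0.9964). EMX2, which did not separate the clones, had no gene over 0.99, and its nearest was ENSG00000250771 (r = 0.9877).

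Markers of 8 other cell types were examined, of which 10 of 19 tested genes were called, 4 higher and 6 lower, near the 47.9% of all tested genes. Of 6 ciliated tubal epithelium markers, 5 were tested and 3 were higher, and their summed level, most of it CAPS, which was not called (log2 fold change 0.09), was 14.7 to 16.1 CPM in OV3/SCR and 20.6 to 26 CPM in OV3/COX1KD. Mesothelial markers, with WT1 as a gene of that tissue, summed to 16.3 to 18.5 CPM and 30.7 to 32.1 CPM. Nearly all of this was UPK3B (15.4 to 29 CPM on average, called), while LRRN4 was not called (log2 fold change -0.09), CALB2 was too low to test and DES had at most 3 counts. PKHD1L1, also too low to test, had 1, 4 and 0 counts in OV3/SCR and 7, 10 and 14 in OV3/COX1KD. Fibroblast markers summed to 11.2 to 11.9 CPM and 6.49 to 7.3 CPM, with 1 of 3 tested genes lower and LUM and THY1 at most 3 counts. Most of this was COL1A1 (10.1 and 5.93 CPM on average, called), while DCN (log2 fold change -0.01) and COL1A2 (-0.51) were not called. Granulosa markers, nearly all AMH, summed to 99.3 to 106 CPM and 42.7 to 58.4 CPM, with NR5A1 and CYP19A1 at most 3 counts. Renal markers, with PAX8 and PAX2 as genes of that tissue, summed to 4.49 to 4.99 CPM and 2.94 to 3.49 CPM, with 2 of 3 tested genes lower. Most of this was SIX2 (3.41 and 2.17 CPM on average). SLC12A1 had a log2 fold change of 0.91 and was not called (edgeR FDR = 0.0369). Early endoderm markers, with SOX17 and GATA6 as genes of that tissue, summed to 4.72 to 5.03 CPM and 1.61 to 2.43 CPM, with 2 of 2 tested genes lower and CER1 at most 3 counts. Leukocyte markers stayed at 0.676 to 1.77 CPM and gastrointestinal epithelial markers at 1.24 to 2.09 CPM, with 0 of 1 tested gene called in each. In bulk RNA, fewer cells of a kind and less RNA per cell cannot be told apart, and the part of these markers in the changes of the lineage factors was not tested.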

How the data were processed

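Gene-level RNA-seq counts of 3 OV3/COX1KD and 3 OV3/SCR libraries were analysed. The deposited values were raw whole-number read counts per gene. Per the submitters' processing notes, reads were aligned with TopHat2 (2.0) to hg19 and counted with HTSeq; the strand setting and annotation release are not given in the sources used here. Counts were fitted in edgeR 4.0.16 (R 4.3.3) with TMM scaling, the default filter on low counts (17309 of 34811 genes kept), a model of condition alone, the quasi-likelihood test and FDR by Benjamini-Hochberg over the tested genes. Calls needed an FDR under 0.01. The methods of the study, which used DESeq2, also asked for a fold above 2.5, and that share is given beside it for edgeR. Libraries held 25291505 to 27391538 counts, floors of 3 counts cover counting error only, and the 95% intervals also hold the spread between passages. No replicate pair agreed within sampling noise (chi-square per degree of freedom 1.54 to 4.09 within a condition). Positions, lengths and overlaps came from GENCODE release 44 on GRCh37, in which 33556 of the 34811 genes matched. Promoter windows came from RefSeq, in which 6 of the 7 factors with a row matched.

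Besides the 8 factors and PTGS1, genes were named by rule: up to 4 called genes with the largest absolute log2 fold change from each list, those needed to say that a gene was not tested, and the 2 genes most correlated with each factor. Some genes that the rule selects are not reported here. The factors and all lists were chosen with earlier results of these data known. Alternatives were other scalings and filters, DESeq2 1.42.0, a replicate block, leaving out each library, and offsets for GC content and length. Counts of 17309 genes were simulated for this comparison with the same dispersion for every gene and 200 genes changed. There, a log2 change of 0.5 was called in 70 of 77 genes at a mean CPM of 2 or more and in 2 of 33 below that. A change of 1.5 was called in 64 of 64 and 21 of 26. Far more genes were called in the data than were changed in the simulation, so these rates need not carry over.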

Additional observations from a re-analysis of the deposited data

How the results depend on the processing

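PAX8, MECOM, GATA6, WT1 and SOX17 kept their direction and their call in all 14 alternatives, with log2 fold changes of -0.84 to -0.72, -0.84 to -0.69, -0.74 to -0.59, 0.33 to 0.44 and 0.24 to 0.36. EMX2 ranged from -0.13 to -0.00702 and was called only with total count scaling (-0.13, FDR = 0.00656), which moved the median of all tested genes to -0.0865. The number of factors called was thus 6 with that scaling and 5 in the other 13 alternatives. All genes called ranged from 6763 in DESeq2 to 8989 without OV3/COX1KD replicate 2. Among the named genes, calls were lost for HOXA10 (0.62) and ENSG00000272563 (-1.31) in DESeq2, for GATA6-AS1 and EMX2OS as given above, and for LINC02984 in DESeq2 and in 4 of 6 fits without a library (FDR = 0.0112 to 0.0165). The cause was not tested. Offsets for GC content and length, chosen after seeing the data, changed no call of a factor.

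The replicate numbers gave no clear pairing of the samples. Deviations of same-numbered libraries correlated at -0.00817, 0.0458 and 0.0267 over 12939 genes, and those of different numbers at -0.049 to 0.0236. With the replicate block 8233 genes were called against 8293 without it, and 5 factors in both fits. With 1 clone per condition, no depth separates the knockdown from the clone. Changes of 0.5 in genes under a CPM of 2 were mostly missed in the simulation, whose rates need not hold for these data.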

Other observations

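Besides PAX8 and WT1, which are themselves on the list of serous carcinoma markers, 6 such markers were tested and 6 were called, 4 higher and 2 lower, where 61.5% of tested genes at least as abundant as GATA6 were called. MUC16, the CA-125 antigen, had 5553, 5753 and 5315 counts in OV3/SCR and 14578, 13275 and 13819 in OV3/COX1KD, a log2 fold change of 1.36 (edgeR FDR = 4.4e-16). The folate receptor gene FOLR1 rose by 1.19 (edgeR FDR = 1.2e-11), the mesothelin gene MSLN by 0.87 (edgeR FDR = 2.7e-15) and EPCAM by 0.40 (edgeR FDR = 1.8e-10). WFDC2, which encodes HE4, changed by -0.29 (edgeR FDR = 4.1e-06) and the keratin gene KRT7 by -0.14 (edgeR FDR = 1.0e-04), in the direction of PAX8. FOXJ1, the master factor of ciliated cells, had 41, 30 and 36 counts in OV3/SCR and 151, 168 and 151 in OV3/COX1KD, a log2 fold change of 2.16 (edgeR FDR = 2.1e-10). TPPP3 and RSPH1, both of cilia, rose by 1.56 (edgeR FDR = 1.9e-04) and 1.39 (edgeR FDR = 2.8e-05). Of the other ciliary markers, CAPS had a log2 fold change of 0.09 (edgeR FDR = 0.428) and DNAH9 of -0.45 (edgeR FDR = 0.361), and PIFO, at 2 to 7 counts, was not tested. The endoderm genes AFP and FOXA2 changed by -2.59 (edgeR FDR = 7.3e-08) and -1.03 (edgeR FDR = 7.1e-05), the direction of GATA6 and opposite to SOX17. These genes were taken from marker lists, and were picked for naming after their values were seen.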
